A study of Mus musculus
Rattus norvegicus and Rattus norvegicus and Mus musculus with 18 samples.

Results

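The cytosolic ribosomal protein genes encode the proteins of the large (60S) and small (40S) ribosomal subunits. They were chosen by symbol, as Rpl or Rps followed by a number with at most a short suffix, or as Rplp0, Rplp1, Rplp2 or Rpsa. The rule found 84 of 17672 mouse genes and 84 of 14876 rat genes (78 symbols, since a few rat symbols have several entries), or 168 of 32548 genes in all. Of the 84 mouse members, 80 are annotated as protein coding. The other 4, Rpl32l, Rpl6l, Rps3a2 and Rps3a3, are annotated as processed pseudogenes, which are copies inserted back into the genome without introns, so these names do not stand for subunit proteins. By name, Rplp2, Rpl22, Rpl8, Rpl10a, Rpl23a, Rps14, Rps19 and Rps26 were among the members found in the mouse table only.

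Ribosomes translate mRNA into protein, and each ribosome carries 1 copy of most of these proteins. The small subunit reads the mRNA, the large subunit joins amino acids, and the acidic stalk proteins Rplp0, Rplp1 and Rplp2 recruit elongation factors. In mammals the mRNAs of many ribosomal proteins begin with a C followed by a run of pyrimidines, the 5′ terminal oligopyrimidine (TOP) motif, through which mTOR signalling controls their translation.

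PolyA RNA-seq libraries came from immunodeficient SRG rats bearing tumors of 4T1 cells, a metastatic breast cancer line of the mouse, placed in a mammary fat pad. Mouse reads therefore come from cancer cells and rat reads from the host. On day 27, tumors of 5 rats were split into a necrotic core and a non-necrotic rim, and 5 lungs were taken, 4 of them from rats that also gave a rim. All samples are labelled wildtype without treatment, and normal rat mammary gland without a transplant (2 libraries) and a 4T1 cell pellet (1 library) serve as references for 1 species each. Each core, rim or lung library held 15346400 to 26669410 reads of mouse genes and 3146720 to 10015352 of rat genes. No pooling of animals is mentioned in the labels.

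The library labelled lung of Rat3789 stood apart from the other lungs. Its 7 rat alveolar and airway markers summed to 21.6 CPM (counts scaled to library size, the unit of the deposited values), against 9338 to 17006 CPM in the other 4 lungs and 10.2 to 113.9 CPM in the rims. Its rat fibroblast markers summed to 26669 CPM, against 2370 to 6640 CPM in the other lungs. The defining lung markers were thus nearly absent from it. Numbers of members called in lung are given with and without it. Other results on lung as a group, such as means, single-gene differences, marker calls and list counts, include it unless stated.

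The annotated 5′ ends show which mouse members begin in the manner of the TOP motif. Among the 80 protein-coding members, 9 (11.2%) began with C followed by at least 4 pyrimidines, against 298 of 13140 protein-coding genes of the mouse table (2.27%). A C followed by 4 pyrimidines lay within the first 15 bases of 33.8% of these members and of 17.6% of all protein-coding genes. The motif searched is read on the transcript strand only, and annotated starts can differ from the starts in use. The first 20 bases are shown for 3 members that begin this way and for the 3 with the largest rises in mouse core among stalk, 60S and 40S proteins, which do not; capitals mark the pyrimidine run from the first base. Sequences are from the GENCODE vM21 annotation of GRCm38.
Rpl32: CTTCCTTCTTCCTCggcgct
Rps24: CTCTTTTCCTCCTCTCCagc
Rps2: CTTCTTCTTCTTCgggagaa
Rpl39: ggccaccaaggctgtggccc
Rplp1: gatcttttcctcagctgccg
Rps25: Cgcgctggccgaaagcgacc

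These transcripts lie at chr6:115805505-115808747 (minus strand) for Rpl32, chr14:24490718-24496959 (plus) for Rps24 and chr17:24720110-24721929 (plus) for Rps2. Rpl39 lies at chrX:37082520-37085402 (minus), Rplp1 at chr9:61913284-61914542 (minus) and Rps25 at chr9:44407139-44410427 (plus), all on GRCm38. Exons of Rps25 overlap those of Ccdc84 and Trappc4 on the other strand, and the labels do not say whether reads were counted by strand. Of the 9 members with the motif at the first base, 3 (Rpl4, Rpl37 and Rps21) rose in the core (limma, adjusted p under 0.05), with a median log2 difference of 0.34. Of 69 other protein-coding members, a set that leaves out Rpl17 and Rps14, 12 rose, with a median of 0.19. The difference between these 2 sets was not tested.

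Ribosomal protein genes took a larger share of reads in the core than in the rim in each of the 5 rats, in both species. In mouse, the core shares of Rat3867, Rat3869, Rat3875, Rat3876 and Rat3877 were 6.50, 9.14, 6.57, 6.13 and 6.58% of mouse reads, and the rim shares 5.73, 6.55, 5.89, 5.81 and 6.51%. The core of Rat3869 was the highest. The cores of Rat3875 and Rat3877 lay just above the highest rim, 6.55%, and those of Rat3867 and Rat3876 within the range of the rims. The group means were 6.98 ± 1.22% in core, 6.10 ± 0.40% in rim and 5.91 ± 0.48% in lung (SD, n = 5 each). The lung shares were 5.28 (Rat3789), 6.60 (Rat3869), 5.86 (Rat3875), 6.06 (Rat3876) and 5.75% (Rat3877), and they overlapped the rims.

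In rat, the core shares of the same rats in the same order were 5.38, 7.87, 6.80, 5.51 and 5.58% of rat reads, and the rim shares 3.82, 4.77, 4.31, 4.42 and 4.45%. Each of the 5 cores exceeded each of the 5 rims. The means were 6.23 ± 1.08% in core, 4.36 ± 0.34% in rim and 4.01 ± 0.56% in lung (SD, n = 5 each). In bulk tissue, fewer cells of a type and less RNA per cell cannot be told apart.

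In the references, mouse members took 11.3% of the reads of the cell pellet (95% exact Clopper-Pearson interval 11.29 to 11.31%, counting error only), more than in any tumor or lung library. In RPM (reads scaled to the plain library total), 80 of 84 mouse members were higher in the pellet than in every rim, 83 than in every lung and 67 than in every core. Only Rps10 was lower in the pellet than in every rim, at 7.19 RPM against 9.13 to 21.1, and it shares exons with RPS10-NUDT3, so its reads are uncertain. Rat members took 2.59 and 3.71% of the reads of the 2 gland libraries. Both glands lay below every core for 64 of 84 rat members, below every rim for 37 and below every lung for 20. They lay above every core for 8, above every rim for 5 and above every lung for 15. The same counts over all genes were not made, so these pellet and gland counts do not set the members apart from other genes. Muscle genes, from a list of 5, took 179717 and 125346 RPM in the glands, and RPM is a share of the library total. The part this plays in the gland counts was not tested.

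**Figure D1:**
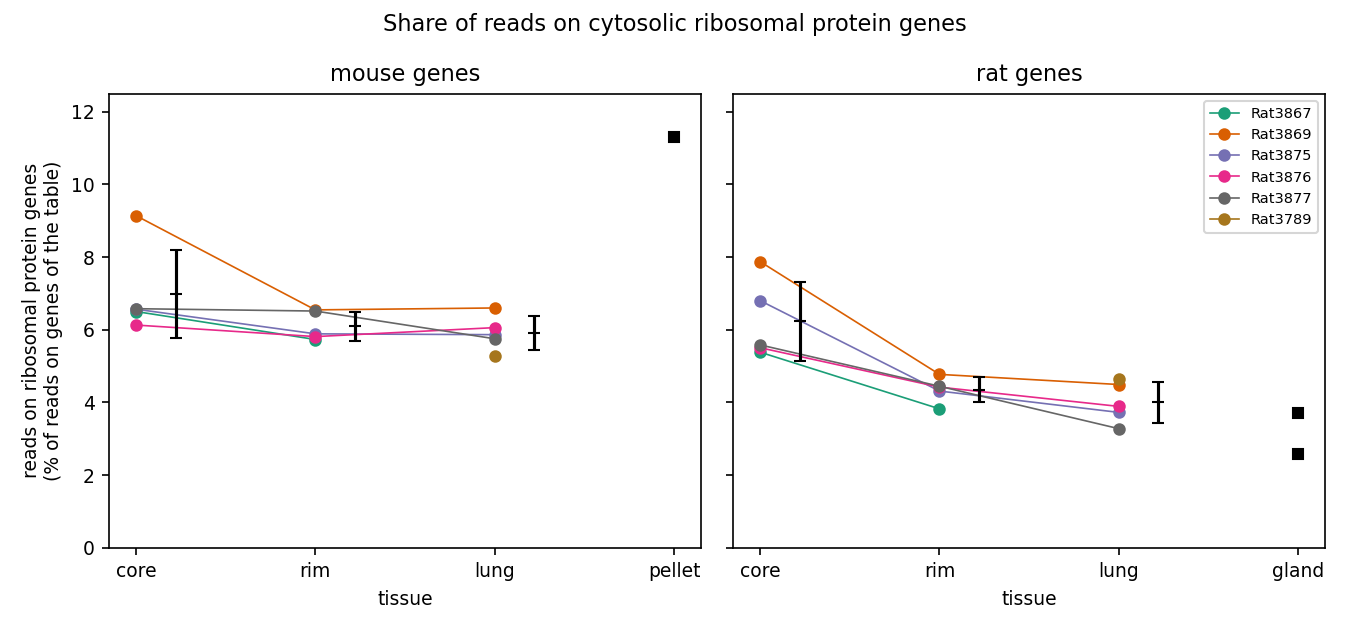
Share of reads on cytosolic ribosomal protein genes (y axis, percent of reads on genes of the species' table) by tissue (x axis), for mouse genes and rat genes; colored points are libraries joined by rat, black bars the mean and SD of 5 libraries, black squares the pellet or gland. Rat cores, at 5.38 to 7.87%, lie above all rims, while among mouse cores Rat3869, at 9.14%, is the highest and 2 others lie within the range of the rims.

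The first comparison asks how the genes of the cancer cells differ between core and rim. Members tended to be slightly higher in core: 80 of 84 had a positive difference, with a median log2 difference of 0.20 against 0.01 over all genes tested. The test was limma on log2 CPM with the rat as a block, at an adjusted p (Benjamini-Hochberg over all genes) under 0.05. By it 16 of 84 mouse members (19.0%) rose and 0 fell, while 10.1% of the 13070 mouse genes tested rose and 9.63% fell. At an unadjusted limma p under 0.05, 32 of 84 members differed, against 4505 of the 13070 genes. edgeR, DESeq2 and limma-voom also called 0 members lower. Among genes of a mean of at least 8 log2 CPM, a level chosen after the values were seen, 12% rose, and of the 71 members at that level 13 did. In 6 of 84 members (7.14%) all 5 cores exceeded all 5 rims, which is near the 7.08% of all genes.

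The count of mouse members called changed with the rats fitted. It was 4 without Rat3867, 10 without Rat3869 and 3 without Rat3875, and 10 without the rat as a block. A fit without 1 rat also has fewer libraries, and the share of all genes called in these fits is not given here. The median difference in each rat was 0.22 in Rat3867, 0.50 in Rat3869, 0.25 in Rat3875, 0.06 in Rat3876 and 0.05 in Rat3877, so that 2 rats showed almost none. Proliferation genes, from a list of 8, fell in all 8 cases in the same comparison, with a median log2 difference of -1.03, and the part this plays was not tested.

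Among the 60S proteins, Rpl39, a small protein of the exit tunnel, had the largest rise of the mouse members that passed the test. Its core values in Rat3867, Rat3869, Rat3875, Rat3876 and Rat3877 were 774, 1121, 783, 767 and 787 CPM, and its rim values 438, 460, 495, 489 and 466 CPM. The groups did not overlap, and the core of Rat3869 stood above the other 4 cores. Rpl39 was 1.78-fold higher in core (log2 difference 0.84 ± 0.11 SE, limma adjusted p = 0.00279), and it passed in each fit that left out 1 rat. Rpl29 rose from 127.3 ± 14.5 to 185.0 ± 33.6 CPM (SD, n = 5 each; 0.53 ± 0.09 SE, limma adjusted p = 0.00675) and Rpl14 from 643 ± 42.3 to 943 ± 228 CPM (0.52 ± 0.13, adjusted p = 0.0241). Rpl14 lost its call without Rat3867 or Rat3875. Rpl22 (0.42) and Rpl38 (0.36) also passed, whereas Rpl3 (0.23, adjusted p = 0.156), Rpl5 (0.16), Rpl7 (0.04), Rpl10 (0.06), Rpl11 (0.23), Rpl13a (0.12) and Rpl23 (0.30) did not. Exons of Rpl13a overlap Gm45713 on the same strand, and its median in the rims was only 41.4 RPM, so its reads are uncertain. Rpl5 and Rpl11, which with 5S RNA bind Mdm2 when ribosome assembly fails, were thus among the members that did not pass.

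Of the stalk proteins, Rplp1 rose and the scaffold Rplp0 did not pass. Rplp1 was at 2051, 3264, 2103, 1736 and 2085 CPM in the cores of Rat3867, Rat3869, Rat3875, Rat3876 and Rat3877 and at 1252, 1695, 1439, 1374 and 1656 CPM in the rims. No core value overlapped a rim value (log2 difference 0.58 ± 0.12 SE, 1.49-fold, limma adjusted p = 0.0133), but the call was lost without Rat3867 or Rat3875. Rplp0 was at 1649 ± 169 CPM in core and 1729 ± 116 CPM in rim (SD, n = 5 each; log2 difference -0.07), and Rplp2 differed by 0.28 (adjusted p = 0.136).

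Among the 40S proteins, Rps25 rose in core, from values of 498, 573, 614, 557 and 636 CPM in the rims of Rat3867, Rat3869, Rat3875, Rat3876 and Rat3877 to 803, 1045, 869, 742 and 779 CPM in the cores. Core and rim values were apart (0.55 ± 0.11 SE, 1.47-fold, limma adjusted p = 0.00951), and it passed in each fit that left out 1 rat. Rps27 rose by 0.45 (adjusted p = 0.0250). Rpsa, a laminin-binding protein of the small subunit, differed by 0.28 (adjusted p = 0.148), Rps6, the substrate of S6 kinase, by 0.19, Rps3 by 0.15, Rps4x by 0.20, Rps14 by 0.12, Rps19 by 0.27 and Rps27a, which is made as a fusion with ubiquitin, by 0.15, and none of these passed. In all, 11 of 50 members named for the 60S subunit and 5 of 34 named for the 40S subunit rose. These 50 and 34 include the processed pseudogenes Rpl32l, Rpl6l, Rps3a2 and Rps3a3.

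The second comparison asks the same of the host. Rat members rose as a group in the core: 60 of 84 (71.4%) passed as higher and 2 as lower, against 17.5% and 20.1% of the 13559 rat genes tested. The median log2 difference was 0.48, against -5.8e-05 over all genes. In 45 members (53.6%) all 5 cores exceeded all 5 rims, against 11.8% of all genes. Abundant rat genes rose often: of genes of at least 8 log2 CPM in the mean 46.7% rose, with a median of 0.27, and of the 58 members at that level 54 (93.1%) rose, with a median of 0.51.

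The rise of rat members was in each rat: the median difference was 0.48 in Rat3867, 0.73 in Rat3869, 0.57 in Rat3875, 0.26 in Rat3876 and 0.33 in Rat3877. Leaving out 1 rat gave 46 to 58 members called higher, and the share of all genes called in these fits is not given here. Both subunits took part, with 35 of 48 members named for the 60S subunit and 25 of 36 named for the 40S subunit. Host cell markers differed in the same comparison: all 8 fibroblast genes fell (median -2.79; summed level 3465 to 11433 CPM in core and 32905 to 61481 CPM in rim), 5 of 10 macrophage genes rose and 3 fell (13205 to 18698 and 10634 to 15248 CPM), and 4 of 6 neutrophil genes rose (242.3 to 1377 and 156.6 to 261.3 CPM). Of the 8 proliferation genes 5 rose in rat core (median 0.55; 886 to 1284 CPM in core and 595 to 879 CPM in rim), and 3 of 6 endothelial genes fell (304 to 857 and 385 to 755 CPM). Their part in the rise was not tested.

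Reads of the other species touch some rat members. In the pellet, 9868 reads fell on rat members, or 0.296% of member reads (95% exact interval 0.291 to 0.302%). With each member's own number of rat-assigned reads in the pellet, scaled to the mouse reads of a library, reads from mouse RNA would be over 10% of core reads for 16 of 84 rat members, 5 of which were called higher, among them Rps3, Rps9, Rps13 and Rps27. Of the 68 other members 55 were called higher. With the expected mouse reads subtracted from the table, 56 members were called higher, and Rps27 was no longer among those that passed.

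In the 60S subunit, Rpl28 had the largest rise among abundant rat members. It was at 734, 1258, 979, 654 and 727 CPM in the cores of Rat3867, Rat3869, Rat3875, Rat3876 and Rat3877, and at 473, 615, 508, 492 and 479 CPM in the rims. The groups did not overlap, and the core of Rat3869 was the highest (0.72 ± 0.11 SE, 1.65-fold, limma adjusted p = 0.00166). Rpl32 (ENSRNOG00000010746) rose by 0.66 and Rpl10, which closes the late steps of 60S maturation, by 0.62. Rpl3 rose from 1372 ± 128 to 1957 ± 231 CPM (0.51 ± 0.10 SE, limma adjusted p = 0.00521). Rpl5 (0.42), Rpl7 (0.41), Rpl11 (0.50), Rpl22l1 (0.42) and Rpl23 (0.55) also rose. Rpl35a (ENSRNOG00000031641) had the largest difference among those called, 0.88, but at only 6.80 CPM in rim and 12.1 CPM in core. The stalk protein Rplp0 rose by 0.40, from 1866 ± 130 to 2494 ± 422 CPM (limma adjusted p = 0.0247), and Rplp1 differed by 0.31 (adjusted p = 0.0903).

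In the 40S subunit, Rps25 was at 548, 698, 617, 570 and 513 CPM in the cores of Rat3867, Rat3869, Rat3875, Rat3876 and Rat3877 and at 334, 344, 382, 403 and 395 CPM in the rims. The groups did not overlap (0.66 ± 0.11 SE, limma adjusted p = 0.00201). Rps28 (0.68), Rps10 (ENSRNOG00000000490, 0.66), Rpsa (0.49) and Rps3 (0.44) also rose. Rps4x (ENSRNOG00000003201) rose by 0.34, and Rps27a (ENSRNOG00000004426) by 0.38. A second entry named Rps4x (ENSRNOG00000029574) differed by 0.14 and did not pass; reads expected from mouse were 130% of its core reads, so it cannot be read as a host value.

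Only Rps4y2 and Rpl10l fell in the rat core. Rps4y2, a paralog of Rps4x, was at 3.76, 7.72, 4.29, 6.95 and 5.17 CPM in the cores of Rat3867, Rat3869, Rat3875, Rat3876 and Rat3877 and at 16.0, 16.1, 17.0, 12.7 and 13.7 CPM in the rims. The groups did not overlap (0.358-fold, log2 difference -1.48 ± 0.24 SE, limma adjusted p = 0.00203), and it had 0 reads in the mouse pellet. Rpl10l, a retrogene copy of Rpl10 known from testis, was at 1.17 ± 0.75 CPM in core and 2.64 ± 1.35 CPM in rim (SD, n = 5 each; -1.23 ± 0.40 SE, limma adjusted p = 0.0425), with 1 to 7 reads per core library. Its call was lost with each rat left out.

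**Figure D2:**
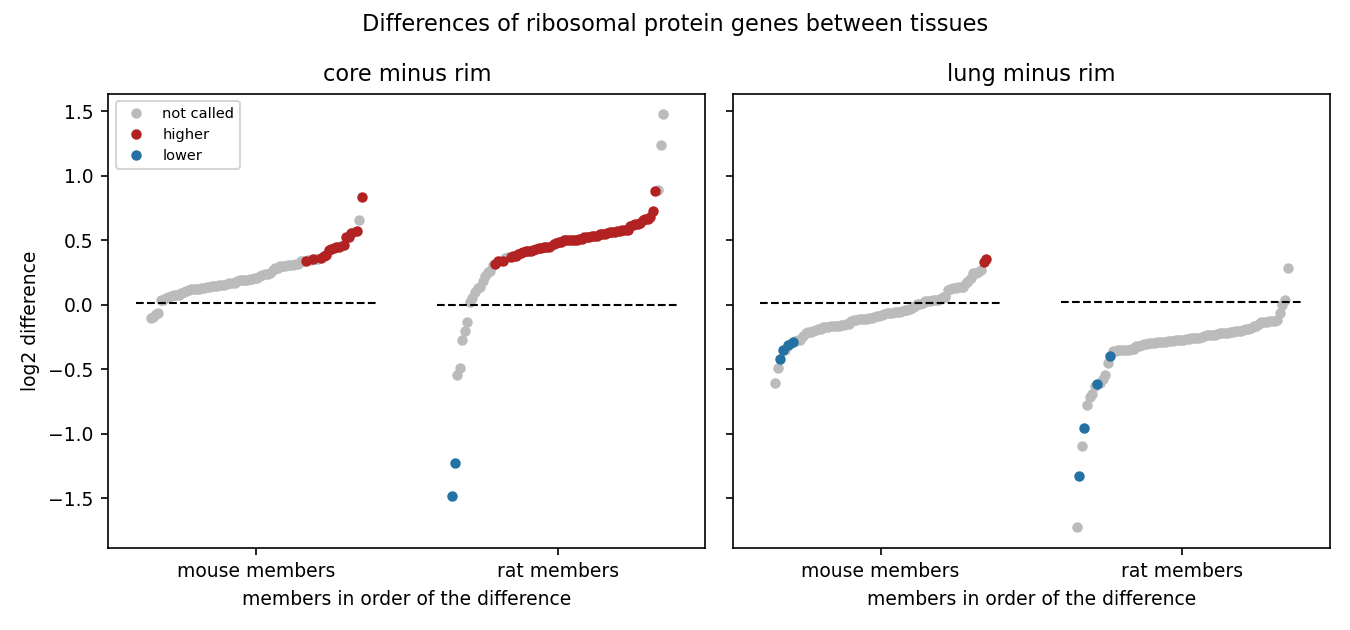
Log2 difference (y axis) of each ribosomal protein gene tested, in order of its value (x axis), for core minus rim and lung minus rim; red and blue points passed the limma test as higher and lower, grey points did not, and dashed lines are the median of all genes. Rat members in core minus rim lie mostly above 0, with 60 of 84 in red, and in lung minus rim 79 of 82 rat members lie below 0.

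**Figure D3:**
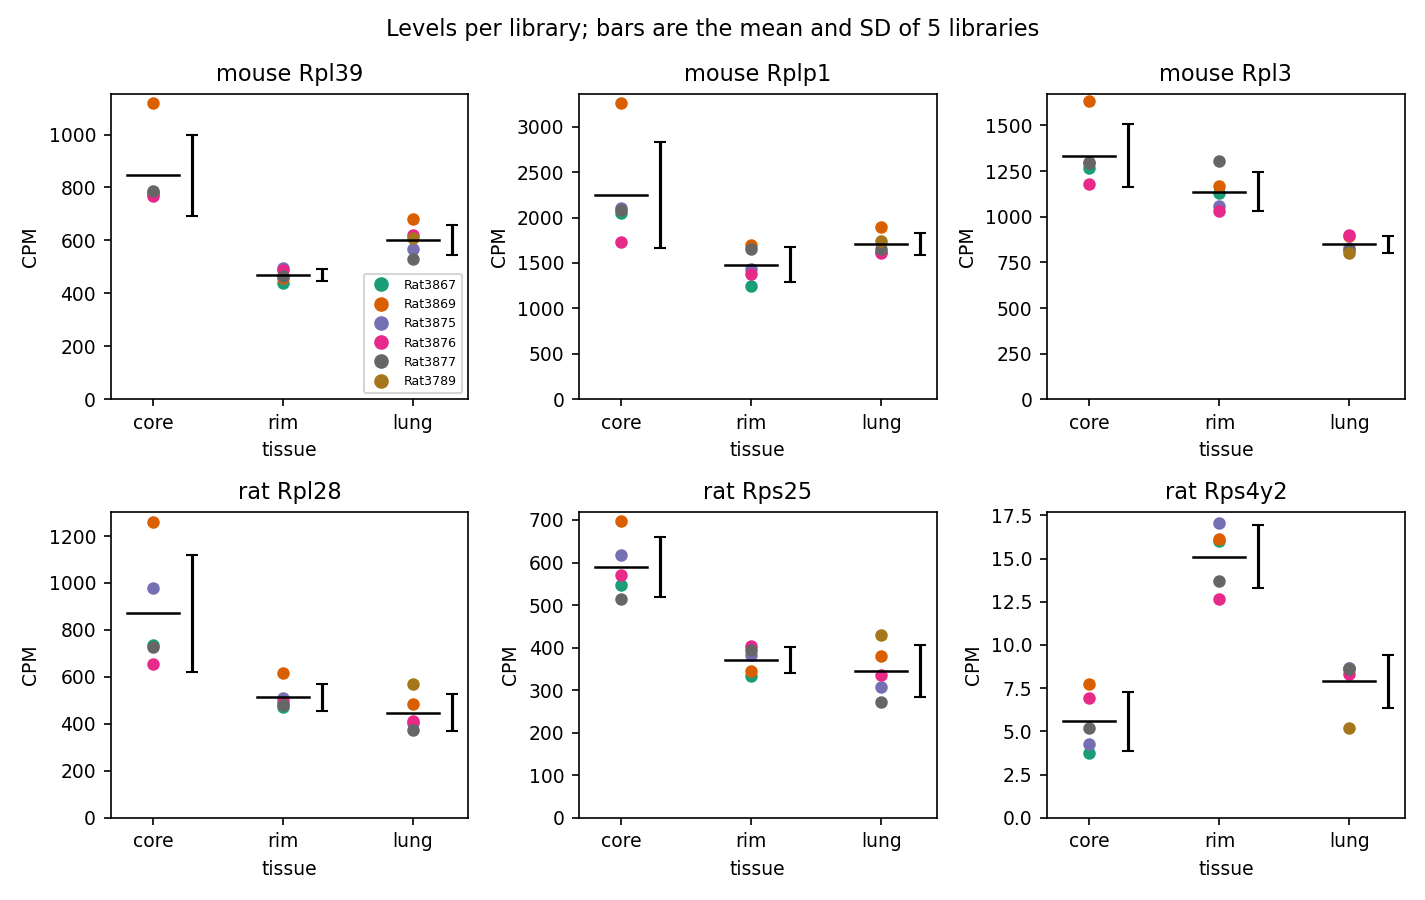
CPM per library (y axis, from 0) of 3 mouse and 3 rat members in core, rim and lung (x axis); points are libraries colored by rat, horizontal lines the mean and bars the SD of 5 libraries. Rat Rps4y2 is at 12.7 to 17.0 CPM in rim and at 3.76 to 7.72 CPM in core, and mouse Rpl39 is higher in each core than in each rim.

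The third comparison sets cancer cells in the lung against those in the rim. It shares the rim libraries with the first comparison, so the 2 are given side by side only. Few mouse members passed the test: 2 of 84 rose and 4 fell, against 9.91% and 10.2% of the 12970 mouse genes tested. The median log2 difference of the members was -0.08, against 0.01 over all genes. Of 631 mouse genes of at least 8 log2 CPM, 373 had negative differences (median -0.05), 5.39% rose and 11.4% fell. Of the 70 members at that level 53 were negative (median -0.11), 1 rose and 4 fell. Rpl3, a protein near the catalytic center, was at 799, 895, 830, 899 and 816 CPM in the lungs of Rat3789, Rat3869, Rat3875, Rat3876 and Rat3877 and at 1129, 1169, 1057, 1029 and 1305 CPM in the rims of Rat3867, Rat3869, Rat3875, Rat3876 and Rat3877. The groups did not overlap (0.747-fold, -0.42 ± 0.08 SE, limma adjusted p = 0.00574). Rpl7 (-0.31) and Rps9 (-0.29) were among the others that fell. Rpl39 rose by 0.35 (adjusted p = 0.0107), from 469.5 ± 23.0 to 602 ± 57.0 CPM, and Rps27l, a p53-responsive paralog of Rps27, by 0.33 (adjusted p = 0.0443). Without Rat3869 no member passed as higher, without Rat3875 only 1 passed as lower, and without the lung of Rat3789 1 rose and 3 fell. DESeq2 called 14 lower, and 10 were lower with the trend on gene length and GC content removed. The share of all genes called in these alternative fits is not given here, and a fit without 1 rat has fewer libraries.

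The fourth comparison sets host tissue of the lung against host tissue of the rim. All but 3 of the 82 rat members tested had negative differences, with a median of -0.27 against 0.02 over all genes. Abundant rat genes leaned the same way: of 555 genes of at least 8 log2 CPM, 358 had negative differences (median -0.12), and 18% fell. The 57 members at that level were all negative (median -0.26), and 2 of them fell. With the 5 lungs, 0 of the 82 members rose and 4 fell, against 10.5% and 11.6% of the 13841 rat genes tested. At an unadjusted limma p under 0.05, 22 of 82 members differed, against 4806 of the 13841 genes. edgeR, DESeq2 and limma-voom also called 0 members higher. Without the lung of Rat3789, 33 members fell, against 14.3% of genes, and with the 4 rats that gave both tissues and the rat as a replicate block 47 fell, against 12.2% of genes. Host markers differed between the same groups: all 8 fibroblast genes fell (median -3.53), all 7 alveolar and airway genes rose (median 6.91), 5 of 7 neutrophil genes rose (median 2.70) and 3 of 6 endothelial genes rose (median 1.18). Neutrophil markers summed to 474 to 5547 CPM in lung and 156.6 to 261.3 CPM in rim, and endothelial markers to 503 to 2647 and 385 to 755 CPM, with Rat3789 the lowest lung in both. Their part in the member differences was not tested. The lung of Rat3789 had a median log2 ratio to the rim mean of 0.09 over the 67 rat members of at least 5 log2 CPM, and the other lungs -0.08 (Rat3869), -0.39 (Rat3875), -0.33 (Rat3876) and -0.54 (Rat3877). DESeq2 called 8 members lower, and the share of all rat genes it called is not given here. Scaling by total counts moved the median of all rat genes to 0.15 and the share of higher calls among calls from 47.6 to 66%, and the median of the members was then -0.14.

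The 4 rat members lower with the 5 lungs were Rps20, Rpl17, Rps4y2 and a low entry named Rpl21. Rps20 was at 392, 385, 285, 273 and 236 CPM in the lungs of Rat3789, Rat3869, Rat3875, Rat3876 and Rat3877, and at 440, 535, 500, 448 and 444 CPM in the rims. The groups did not overlap (0.652-fold, -0.62 ± 0.14 SE, limma adjusted p = 0.0123). Rpl17 fell from 637 ± 64.5 to 483 ± 48.1 CPM (-0.40 ± 0.10 SE, limma adjusted p = 0.0185), and Rps4y2 from 15.1 ± 1.83 to 7.89 ± 1.53 CPM (-0.96 ± 0.18 SE, limma adjusted p = 0.00358). The Rpl21 entry (ENSRNOG00000029410) was outside the rule for named genes and is named after its values were seen, with 1.01 CPM in lung and 2.82 CPM in rim. Rps20 and Rpl17 each lost the call when some single rats were left out.

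**Figure D4:**
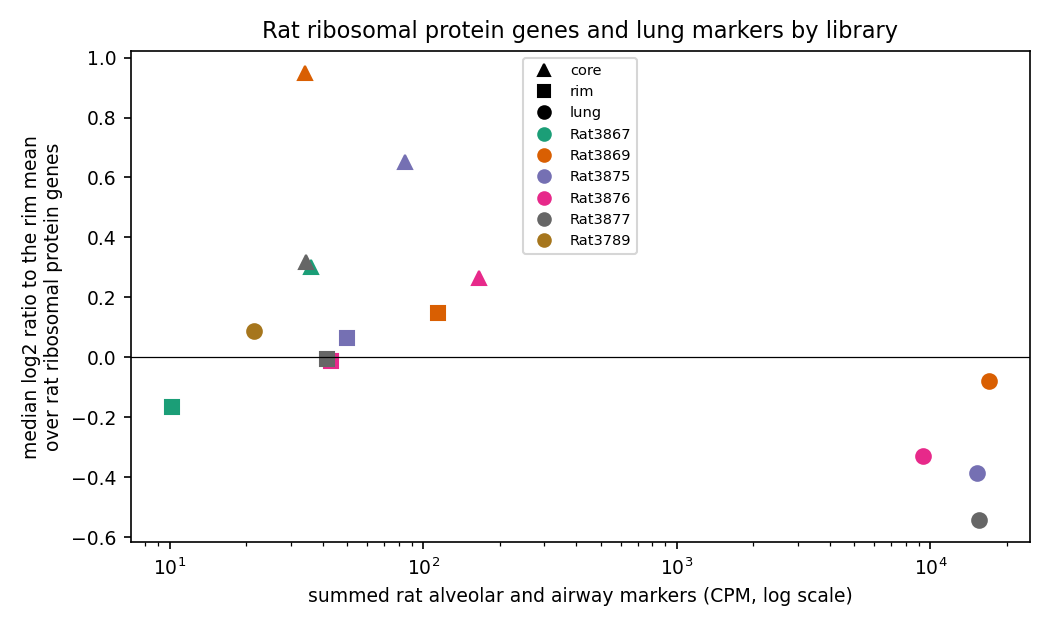
Median log2 ratio of 67 rat ribosomal protein genes to the rim mean (y axis) against the summed rat alveolar and airway markers (x axis, CPM, log scale), 1 point per library, shaped by tissue and colored by rat. The library labelled lung of Rat3789 sits with the rims at 21.6 CPM and 0.09, away from the other 4 lungs at 9338 to 17006 CPM.

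The paralogs were set against their main genes as ratios of reads. Rpl3l, the muscle paralog of Rpl3, reached 655.6 and 425.6 RPM in the 2 glands but at most 14.6 in the tumor and lung libraries. Reads expected from mouse were 100% of the Rpl3l reads in core, 152% in rim and 83.6% in lung. Outside the glands Rpl3l thus cannot be read as a host value. Its ratio to Rpl3 reads ranged from 0.684 to 3.37 in the glands and was at most 0.00832 elsewhere. The muscle list summed to 179717 and 125346 RPM in the glands, in the same order as the Rpl3l values, against at most 3934 in the tumor and lung libraries. The part of muscle in this was not tested. Mouse Rpl22l1, the paralog that can replace Rpl22, had a median read ratio to Rpl22 of 0.114 in core, 0.127 in rim and 0.0856 in lung, with ranges that overlapped; it was 108.8 ± 18.3 CPM in core and 76.9 ± 26.7 in rim (SD, n = 5 each; 0.56, limma adjusted p = 0.0677). Mouse Rps27l to Rps27 was 0.110 to 0.156 in core, 0.144 to 0.190 in rim and 0.191 to 0.249 in lung, and 0.336 in the pellet. Lung ratios lay above every rim ratio.

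Mouse Rpl7l1, a protein related to Rpl7, had ratios to Rpl7 of 0.0879 to 0.111 in core, 0.0865 to 0.105 in rim and 0.126 to 0.146 in lung, so the lungs again lay above both tumor regions. Rpl7 itself was among the members that fell in mouse lung, and Rpl7l1 was not among those called higher there. The ratio alone thus does not show a rise of Rpl7l1. In rat, the same ratio was 0.0366 to 0.0598 in core, 0.0574 to 0.0734 in rim and 0.0639 to 0.0940 in lung. Mouse copies named as pseudogenes took 4.64% as many reads as the members in the rim of Rat3869 and 2.03 to 2.55% in the other libraries. In that rim, the rat entry Rpl21 (ENSRNOG00000032803) was at 42.3 CPM, against at most 2.11 in the other rims. Rat Rpl39 was at 17.3 CPM there, against at most 3.00. Whether these rat entries are copies of other genes was not tested.

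Other genes of the pathway, in lists chosen by name, were counted beside the members. Over all genes tested, 10.1% rose and 9.63% fell in mouse core, 17.5% and 20.1% in rat core, 9.91% and 10.2% in mouse lung, and 10.5% and 11.6% in rat lung, and 46.7% of rat genes of at least 8 log2 CPM rose in core. Ribosome biogenesis genes rose in 2 of 35 cases in mouse core (Gnl3, 0.72, and Ppan, 0.55) and in 15 of 33 in rat core, led by Polr1a (0.67), a subunit of RNA polymerase I, Ppan (0.58), Ncl (0.50) and Fbl (0.47). In mouse lung against rim they rose in 15 of 35 cases, led by Rrp9 (0.68), Bysl (0.64), Nop2 (0.64) and Nop10 (0.63), and in rat lung in 3 of 33. Of translation initiation and elongation genes, 17 of 31 rose in rat core, 4 of 34 rose and 1 fell in mouse core, 1 of 34 rose and 4 fell in mouse lung, and in rat lung 1 of 31 fell by limma and 6 by DESeq2. Mitochondrial ribosomal protein genes rose in 27 of 71 cases in rat core (15 by DESeq2) and in 12 of 77 in mouse lung. In mouse core 3 rose and 2 fell of 77. In rat lung 0 of 71 rose by limma, and edgeR, DESeq2 and limma-voom also called 0 higher. At an unadjusted limma p under 0.05, 3 of the 71 differed in rat lung, against 4806 of the 13841 rat genes tested. In the list of mTOR and TOP control, Rragd, a Rag GTPase, rose by 2.12 in rat core and Rragc by 0.73, and 5 of 24 rose and 3 fell; in mouse core 1 of 23 (Rragc, 0.56) rose. Of the Myc and ribosomal stress list, 2 of 10 rose (Mxd1, 0.60, and Max, 0.30) and 1 fell in mouse core, and 6 of 11 rose in rat core, led by Mxd1 (1.57). Its member Cdkn1a, a cyclin-dependent kinase inhibitor, fell by 1.26 on the log2 scale in mouse core and rose by 1.42 in rat core.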

How the data were processed

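Reads were processed by the authors with Trim Galore, STAR, featureCounts and limma on the builds GRCm38 and Rnor_6.0, per the submitters' processing notes. The labels state neither tool versions nor a strand setting. The authors deposited a normalized signal per gene for tumor and lung libraries, and read counts for the control libraries. Each deposited signal value equals whole reads plus 0.5, times a library constant (100% of values whole within 0.01 reads), so it is read as CPM, and the reads were recovered from it. The gland libraries are numbered as in the deposited table.

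The design allowed for counts; because the values are a signal, the test was limma 3.58.1 (trend, two-sided) in R 4.3.3 on log2 CPM, over genes that reached 1 CPM in 5 or more of the compared libraries, fitted over each whole species table. Core and rim were paired by rat, named in the labels; deviations of a rat's regions correlated at -0.18 to 0.24 (mouse) and 0.03 to 0.34 (rat). edgeR 4.0.16 and DESeq2 1.42.0 on recovered reads were alternatives. Tests were checked on simulated data. For core against rim, p-values rest on how much the core-minus-rim difference varied between rats. The main fits of lung against rim had no rat block, although most lungs came from rats that also gave a rim. Their p-values rest on the spread between libraries of the same tissue. Named genes were the 5 largest rises and falls among called members of at least 2 log2 CPM, plus a list of genes of known role. Members and lists were chosen with earlier results of these data known. The pellet and glands were set beside the other libraries in RPM, reads divided by the library total in units of 1e6. Intervals are from scipy 1.17.1. Values of some members are not reported here.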

Additional observations from a re-analysis of the deposited data

Results flagged for a closer look

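Among 192 groups of 5 libraries (read shares and log2 CPM of named members), 11 held a library whose gap to its nearest neighbor exceeded 0.71 of the group's range; chance gives about 1 in 20. In 7 of them it was the core of Rat3869, as the highest in mouse: the read share (0.850) and Rps9 (0.760), Rps27a (0.783), Rps27l (0.743), Rpl5 (0.787), Rpl7l1 (0.733) and Rpl39 (0.931). The lung of Rat3869 was the highest for mouse Rpl22 (0.895) and Rpl11 (0.847), and its rim for rat Rpl28 (0.723). The library labelled lung of Rat3789 was the lowest for rat Rps4y2 (0.923).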

How the results depend on the processing

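Of 2106 values under alternatives, 1889 kept their direction, side of the threshold or size, 97 lost a call, 41 gained one, 35 moved and 44 changed sign. The cause of these changes was not tested.

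For the alternative fits below, the share of all genes called is given only for rat lung, with the replicate block and without Rat3789, in the text above. For mouse core against rim, members called higher numbered 10 without the replicate block and 3 to 17 with 1 rat left out. For rat core against rim, members called lower numbered 1 with DESeq2, 1 with no replicate block, 1 without Rat3876 and Rat3877, and 1 with each rat left out (1 to 1). For mouse lung against rim, members called higher numbered 1 with no filter, 1 with the replicate block, 0 without Rat3876 and Rat3877 and 0 to 2 with 1 rat left out; members called lower numbered 14 with DESeq2, 10 with the length and GC trend removed, 2 with the replicate block, 0 without Rat3876 and Rat3877 and 1 to 4 with 1 rat left out. For rat lung against rim, members called lower numbered 2 with total-count scaling, 8 with DESeq2, 47 with the replicate block, 1 without Rat3876 and Rat3877 and 1 to 33 with 1 rat left out. DESeq2 called 15 mitochondrial ribosomal protein genes higher in rat core, against 27 by limma, and 6 translation genes lower in rat lung, against 1. With members named in both tables only, the mean mouse share was 5.40% in rim and 5.24% in lung. The medians of members for core against rim stayed positive in each alternative run, and those for lung against rim negative.

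Sign changes were in members that had not passed the test; each value is a log2 difference. In mouse, core against rim, Rpl10 was -0.045 to 0.14 (1 rat left out). Rpl7 was -0.011 (total-count scaling), -0.0074 to 0.097 (1 rat left out). In rat, core against rim, Rpl39 was -0.025 (edgeR quasi-likelihood), -0.43 (limma-voom), -0.050 (without Rat3876 and Rat3877), -0.30 to 0.47 (1 rat left out). Rpl7l1 was -0.053 to 0.095 (1 rat left out). Rps4x (the low entry) was -0.024 to 0.43 (1 rat left out). Rps6 was -0.011 (1 CPM added), -0.052 (DESeq2), -0.093 (edgeR quasi-likelihood), -0.066 (limma-voom), -0.19 to 0.31 (1 rat left out). In mouse, lung against rim, Rpl11 was 0.014 (total-count scaling), 0.053 (without Rat3876 and Rat3877), -0.084 to 0.041 (1 rat left out). Rpl38 was 0.0058 (total-count scaling), -0.079 to 0.028 (1 rat left out). Rplp0 was -0.021 to 0.080 (1 rat left out). Rplp2 was 0.0067 (total-count scaling). Rps27 was 0.0091 (without Rat3876 and Rat3877). Rps6 was -0.010 (DESeq2), -0.0067 (edgeR quasi-likelihood), -0.0023 (length and GC trend removed), -0.050 to 0.13 (1 rat left out). Rpsa was -0.0086 to 0.092 (1 rat left out). In rat, lung against rim, Rpl3l was -0.012 (limma-voom). Rpl7l1 was -0.021 (replicate block), -0.015 to 0.095 (1 rat left out). Rps25 was 0.0070 (total-count scaling), 0.061 (without Rat3876 and Rat3877). Rps27l was 0.076 (expected mouse reads subtracted), 0.064 (total-count scaling), 0.065 (without Rat3876 and Rat3877), -0.12 to 0.0084 (1 rat left out). Rps4x (the low entry) was 2.42 (expected mouse reads subtracted). The number of rat reads, lowest in core, limits the precision of members with few reads.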
